A study of Mus musculus with 6 samples.

Results

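The genes described here are 10 of the oxygen-sensing pathway and its targets. Of these, 3 encode subunits of the hypoxia-inducible transcription factors (Hif1a, Epas1 and Arnt), and 3 sense oxygen or remove the factors (Vhl, Egln1 and Egln3). The other 4, Bnip3, Ak4, Vegfa and Lox, are target genes of the factors. The 10 were chosen by gene symbol. Their symbols are carried by 22 of the 20380 probe sets that name 1 gene, and the whole array holds 12393 such genes. The samples were brains of E11.5 mouse embryos, all of the Swiss Albino strain. The diabetic group held 3 malformed brains from embryos of mothers with diabetes induced by streptozotocin (STZ), a drug that kills pancreatic beta cells, and the control group held 3 brains from embryos of normal mice. Each brain was hybridized to an Affymetrix array of its own. Replicates 1 and 2 of both groups form a first table of values and replicate 3 of both groups a second table, made on another chip of the same probe sets. Every diabetic brain was a malformed one, so the effects of the mother's diabetes and of the malformation cannot be told apart, and the labels do not say whether brains shared a litter, so p-values measure only the spread between these arrays. Values are probe set signals on a linear scale, comparable between arrays of 1 table for the same probe set and not between probe sets.

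Hypoxia-inducible factors are pairs of an oxygen-regulated alpha subunit, such as HIF-1 alpha (Hif1a) or HIF-2 alpha (Epas1), and the stable partner ARNT. When oxygen is present, the prolyl hydroxylases EGLN1 and EGLN3 mark the alpha subunit, the VHL protein recognises the mark, and the subunit is degraded. When oxygen is low the alpha subunit persists and, with ARNT, switches on genes for glycolysis, vessel growth and mitochondrial turnover. Because this control acts mainly on the protein, the transcript level of Hif1a is no readout of the activity of the factor, whereas transcripts of the targets are the usual readout. In the embryonic brain the pathway is known for guiding vessel ingrowth through VEGF.

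The tissue carried the transcripts that define embryonic brain. Sox2, a transcription factor of neural progenitors, had signals of 1991 to 2992 on the diabetic arrays and 1669.8 to 2907 on the control arrays, and Tubb3, a tubulin of newborn neurons, had 959 to 2805 and 1640.2 to 1802. Of 18 brain markers on the arrays only En1, a gene of the midbrain and hindbrain, had a mean signal under 100, the level below which genes were not tested. Median signals of the arrays were 173 to 227 in the diabetic and 165 to 222 in the control group, and the 3′ over 5′ ratio of the Gapdh control probe sets, a measure of RNA integrity, was 0.701 to 0.815 and 0.725 to 0.812. Across the 8631 genes tested, limma called 0 at an adjusted p under 0.05 (0% of genes); the smallest adjusted p was 0.526. At an unadjusted p under 0.05 it counted 655 genes, 7.59% of those tested. No member passed the adjustment, and the differences below are therefore measured values that did not pass the test.

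HIF complexes bind a short core sequence, ACGTG or GCGTG. The promoter windows of the 5 members whose signals were highest on the same array, described below, are printed here to show where that core occurs in them. They come from RefSeq (GRCm38.p6), run from 250 bases before to 50 after the annotated start on the strand of the gene, and have each match in capitals, on either strand (reverse-strand matches read CACGT or CACGC). Overlapping matches merge into longer capital runs, and CACGTG is also the E-box that other factors bind.
Bnip3 (chr7:138909457-138909756, minus strand): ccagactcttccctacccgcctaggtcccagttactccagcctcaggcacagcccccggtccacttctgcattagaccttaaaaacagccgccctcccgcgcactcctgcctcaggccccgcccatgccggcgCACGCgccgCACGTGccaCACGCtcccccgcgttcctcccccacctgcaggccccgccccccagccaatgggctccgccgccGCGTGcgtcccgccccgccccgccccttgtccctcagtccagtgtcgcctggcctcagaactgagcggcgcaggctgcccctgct
Egln3 (chr12:54203825-54204124, minus strand): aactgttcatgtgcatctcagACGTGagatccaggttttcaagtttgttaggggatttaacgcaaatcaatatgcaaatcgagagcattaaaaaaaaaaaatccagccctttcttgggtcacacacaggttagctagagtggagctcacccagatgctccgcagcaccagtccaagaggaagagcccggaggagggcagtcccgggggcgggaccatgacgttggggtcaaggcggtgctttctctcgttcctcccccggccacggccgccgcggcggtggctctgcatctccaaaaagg
Egln1 (chr8:124949205-124949504, minus strand): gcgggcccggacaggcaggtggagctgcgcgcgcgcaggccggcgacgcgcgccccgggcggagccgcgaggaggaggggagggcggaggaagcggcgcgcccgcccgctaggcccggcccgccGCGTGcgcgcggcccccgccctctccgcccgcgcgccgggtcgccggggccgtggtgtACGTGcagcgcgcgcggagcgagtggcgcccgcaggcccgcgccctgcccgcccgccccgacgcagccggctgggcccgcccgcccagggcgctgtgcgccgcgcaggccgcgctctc
Ak4 (chr4:101419039-101419338, plus strand, the most upstream of 4 annotated windows): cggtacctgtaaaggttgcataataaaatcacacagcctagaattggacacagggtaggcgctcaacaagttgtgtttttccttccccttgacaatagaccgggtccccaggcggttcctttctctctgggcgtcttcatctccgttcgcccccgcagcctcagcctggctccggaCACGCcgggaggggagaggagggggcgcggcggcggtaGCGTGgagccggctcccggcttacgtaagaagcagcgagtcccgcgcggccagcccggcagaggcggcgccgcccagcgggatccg
Vegfa (chr17:46032328-46032627, minus strand, the more upstream of 2 annotated windows): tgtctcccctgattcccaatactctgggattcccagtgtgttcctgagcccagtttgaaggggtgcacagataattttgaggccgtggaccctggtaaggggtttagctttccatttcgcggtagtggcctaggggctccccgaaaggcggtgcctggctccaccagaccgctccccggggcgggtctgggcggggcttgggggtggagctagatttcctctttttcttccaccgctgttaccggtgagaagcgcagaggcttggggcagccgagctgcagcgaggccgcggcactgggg

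The Bnip3 window held 5 matches, between 117 and 35 bases before the start, the Egln1 and Ak4 windows 2 each, and the Egln3 window 1, at 229 bases before the start. The printed Vegfa window held 0. Among the other members with a window, Hif1a had 3 matches, Arnt 1 and Vhl 0, so that 6 of the 8 members with a window held the core in the most upstream one. The core is common: 43.8% of 32841 RefSeq mouse promoter windows of the same length held it on at least 1 strand. The presence of a match is a description of the letters and not of binding.

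Among the factors, the alpha subunit gene Hif1a was lower on both diabetic arrays of the first table. Its main probe set (1427418_a_at) had signals of 1749.6, 1605 and 3099.8 on diabetic replicates 1 to 3, against 2989.8, 2115 and 2899.8 on control replicates 1 to 3. Diabetic replicates 1 and 2 both lay under both controls of their table, and diabetic replicate 3 lay slightly above its own control. The log2 change, diabetic over control with each table compared within itself, was -0.35 ± 0.20 (SE, n = 3 per group; limma unadjusted p 0.114, adjusted p 0.690), made up of -0.58 for replicates 1 and 2 and 0.095 for replicate 3. The 3 other Hif1a probe sets did not share 1 direction: 1416035_at had a log2 change of -0.35, 1448183_a_at -0.11 and 1431981_at, which is dimmer with a mean signal of 97.4, 0.37. As single arrays were left out the main value ranged from -0.58, without either array of the second table, to -0.15, without control replicate 1.

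Arnt, the partner subunit, had signals of 386, 301 and 222 on diabetic replicates 1 to 3, against 309, 286 and 93.6 on control replicates 1 to 3. The groups overlapped in the first table, where control replicate 1 lay above diabetic replicate 2, and most of the difference came from the single pair of the second table. The log2 change was 0.46 ± 0.20 (SE, n = 3 per group; limma unadjusted p 0.0510, adjusted p 0.656), or 0.18 from the first table alone and 1.01 from the second alone. A second Arnt probe set had 0.21.

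Epas1, which encodes HIF-2 alpha, the form known from endothelium, was the 1 member under the filter of 100. Its signals were 96.0, 87.0 and 46.8 on diabetic replicates 1 to 3 and 75.0, 125.9 and 29.3 on control replicates 1 to 3, a mean of 76.7, so the gene was not tested. Diabetic replicates 1 and 2 lay between both of their controls and diabetic replicate 3 above its own, and the log2 value of 0.071 came to -0.075 for replicates 1 and 2 and 0.36 for replicate 3.

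Vhl, the receptor through which hydroxylated alpha subunits are degraded, had signals of 346, 426 and 287 on diabetic replicates 1 to 3 and 536, 376 and 192 on control replicates 1 to 3. Diabetic replicate 1 lay under both of its controls, diabetic replicate 2 between them and diabetic replicate 3 above its control. Its log2 change was 0.029 ± 0.21 (SE, n = 3 per group; limma adjusted p 0.982), with a 95% interval from -0.45 to 0.50. The first table alone gave -0.21 and the second alone 0.51.

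**Figure D1:**
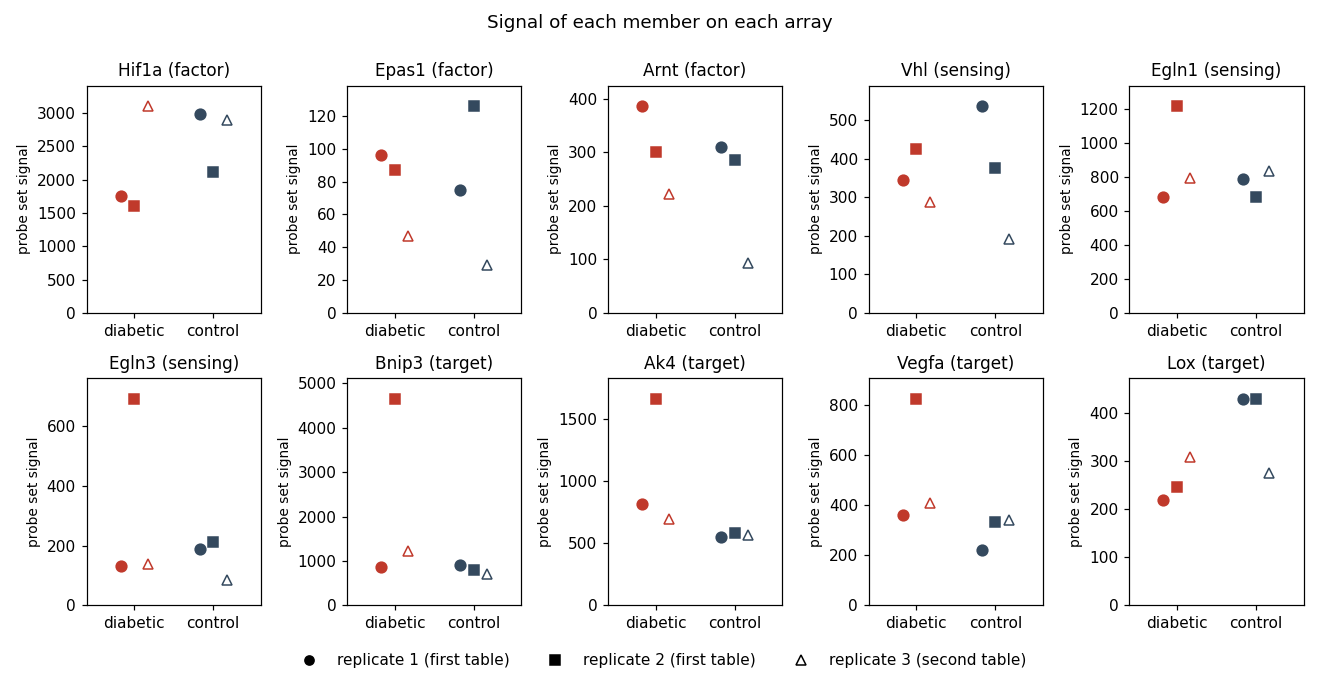
Probe set signal (linear, axes from 0) of each member on each of the 6 arrays, diabetic left and control right in each panel; filled circles and squares are replicates 1 and 2 of the first table and open triangles replicate 3 of the second. Diabetic replicate 2 stands above the other 5 arrays for Egln1, Egln3, Bnip3, Ak4 and Vegfa and not for Hif1a, Epas1, Arnt, Vhl or Lox.

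The prolyl hydroxylase genes Egln1 and Egln3, which are themselves known to be induced by the factors they restrain, were high on 1 array, diabetic replicate 2. Egln3 had signals of 132, 692 and 138 on diabetic replicates 1 to 3, against 189.95, 212 and 84.4 on control replicates 1 to 3. Diabetic replicate 2 exceeded both controls of its table, diabetic replicate 1 lay under both of them, and diabetic replicate 3 lay above its control. The log2 change of Egln3 was 0.56 ± 0.43 (SE, n = 3 per group; limma adjusted p 0.744), being -0.056 without diabetic replicate 2 and 1.17 without diabetic replicate 1. Its dimmer probe set 1418648_at was high on that array too, with 300.2 against 56.5 to 64.8 on the 3 controls, and had 119 and 27.0 on diabetic replicates 1 and 3.

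Egln1, the main oxygen sensor of most cells, had signals of 683, 1217 and 792 on diabetic replicates 1 to 3, against 789, 679.6 and 833 on control replicates 1 to 3. Diabetic replicate 2 lay above both of its controls, diabetic replicate 1 between them, and diabetic replicate 3 slightly under its control. The log2 change was 0.18 ± 0.22 (SE, n = 3 per group; limma adjusted p 0.840), with -0.085 when diabetic replicate 2 was left out and 0.37 when diabetic replicate 1 was. The second Egln1 probe set, 1451110_at, had 616, 1264 and 314 on diabetic replicates 1 to 3 against 556, 308 and 265 on control replicates 1 to 3. There the diabetic arrays lay above the controls within both tables, by 0.76 ± 0.34 on the log2 scale (SE, n = 3 per group).

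Among the targets, Bnip3, a mitophagy receptor of the outer mitochondrial membrane, had the widest spread between the diabetic arrays of the first table on the log2 scale. Its signals were 859.7, 4657 and 1220.0 on diabetic replicates 1 to 3, against 902, 797 and 699 on control replicates 1 to 3. Diabetic replicate 1 lay between both controls of its table, diabetic replicate 2 far above them, and diabetic replicate 3 above its control. The log2 change was 1.07 ± 0.48 (SE, n = 3 per group; limma unadjusted p 0.0519, adjusted p 0.656), a 2.10-fold difference with a 95% interval from 0.992 to 4.44. It was 0.34 without diabetic replicate 2 and 1.71 without diabetic replicate 1.

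Ak4, a mitochondrial adenylate kinase, had signals of 815, 1668 and 692 on diabetic replicates 1 to 3, against 549, 583 and 569 on control replicates 1 to 3. Within both tables every diabetic array lay above every control array, and the controls differed little among themselves. The log2 change was 0.76 ± 0.26 (SE, n = 3 per group; limma unadjusted p 0.0178, adjusted p 0.609), a 1.69-fold difference with a 95% interval from 1.12 to 2.56, and it was 0.40 without diabetic replicate 2. Of the 3 other Ak4 probe sets, 1421830_at had 826, 1255 and 336 on diabetic replicates 1 to 3 against 656, 665 and 427 on control replicates 1 to 3, with a log2 change of 0.29. Probe set 1421829_at had a log2 change of 0.35, and 1421831_at, with a mean signal of 24.0, had -0.041.

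Vegfa, the endothelial growth factor, had signals of 358, 825 and 407 on diabetic replicates 1 to 3, against 222, 332 and 340.4 on control replicates 1 to 3. Within both tables the diabetic arrays lay above the controls, diabetic replicate 1 by the least over control replicate 2. The log2 change was 0.70 ± 0.30 (SE, n = 3 per group; limma unadjusted p 0.0418, adjusted p 0.648), a 1.62-fold difference with a 95% interval from 1.02 to 2.58. It was 0.31 without diabetic replicate 2. The second Vegfa probe set, 1451959_a_at, gave nearly the same value, 0.67 ± 0.23, with 371, 624 and 270.2 on diabetic replicates 1 to 3 and 275, 366 and 130.3 on control replicates 1 to 3.

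Lox, the lysyl oxidase that cross-links collagen, stood apart from the other targets. Its signals were 219, 246 and 309 on diabetic replicates 1 to 3, against 429.9, 431 and 275 on control replicates 1 to 3. Diabetic replicates 1 and 2 lay far under their controls, which were nearly equal, and diabetic replicate 3 was slightly above its control. The log2 change was -0.49 ± 0.21 (SE, n = 3 per group; limma unadjusted p 0.0431, adjusted p 0.649), made up of -0.81 for replicates 1 and 2 and 0.15 for replicate 3. The second probe set, 1448228_at, gave -0.94 and 0.67 for the same 2 tables, and the third, with a mean signal of 15.4, gave -0.59 and -0.15. Lox was lower on diabetic replicate 2 by about as much as on diabetic replicate 1 (-0.73 and -0.88 from the mean of their controls).

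**Figure D2:**
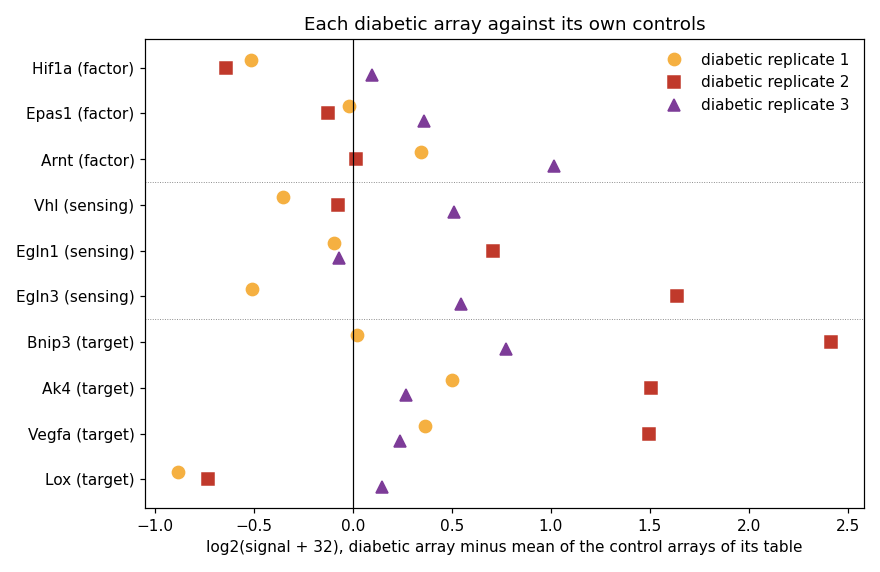
Difference in log2(signal + 32) between each diabetic array and the mean of the control arrays of its own table, for the 10 members by role (circles, squares and triangles are diabetic replicates 1, 2 and 3). On diabetic replicate 2 Bnip3, Egln3, Ak4 and Vegfa lie between 1.50 and 2.41 and Hif1a and Lox at -0.64 and -0.73.

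Set against each other by role, the targets had the higher median. The 4 targets had a median log2 change of 0.73, with 3 above 0, and the 5 tested factors and sensing genes 0.18, with 4 above 0, against a median of 0.012 and 52.2% above 0 over all genes tested. With Egln3 counted among the targets, the difference between both medians was 0.59 in place of 0.55. In the second table alone it was -0.26, where Arnt, Vhl and Egln3 had 1.01, 0.51 and 0.55. With array weights, which give less weight to arrays that lie far from the fitted values, Bnip3 had 0.68, Vegfa 0.46, Egln3 0.11 and Egln1 0.10. With the mean of all probe sets of a gene in place of the brightest one, Ak4 had 0.34, Hif1a -0.11 and Egln1 0.47, and the difference between both medians was 0.18. Taken array by array against the control mean, the targets had medians of 0.19, 1.50 and 0.25 on diabetic replicates 1 to 3, and the factors and sensing genes -0.35, 0.015 and 0.51. Among all 9 tested members 2 were higher at an unadjusted p under 0.05 in limma, Ak4 and Vegfa, where 3.72% of all genes were, and 1 was lower, Lox, where 3.87% of all genes were. The diabetic arrays lay above the controls within both tables for 2 members, the same Ak4 and Vegfa, where 11.3% of all genes did, and below them for 0 members, where 10.7% of all genes did.

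**Figure D3:**
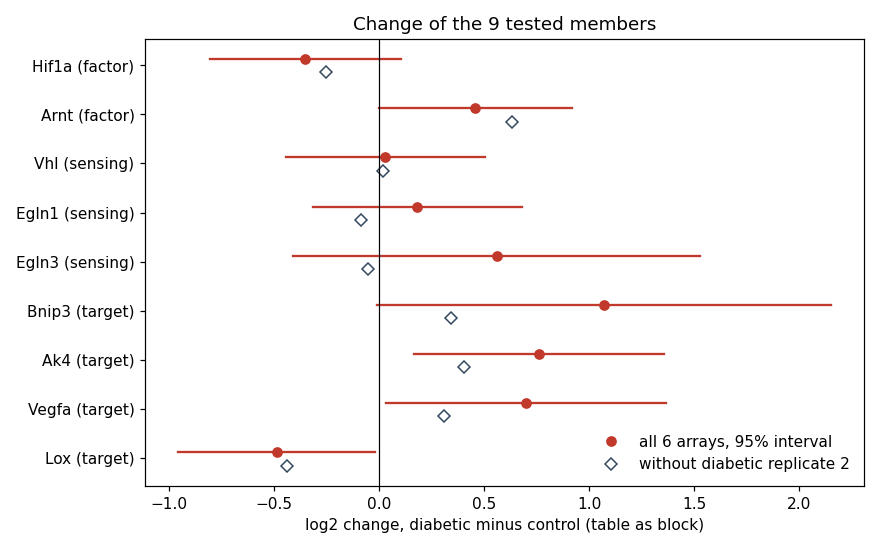
Log2 change, diabetic minus control with the table as a block, of the 9 tested members (filled circles, bars are 95% intervals from limma) and the same without diabetic replicate 2 (open diamonds). Without that array Bnip3, Ak4 and Vegfa move to 0.34, 0.40 and 0.31 and Egln1 and Egln3 to -0.085 and -0.056, while Hif1a and Lox stay below 0.

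The members that were high together were highest on 1 array, diabetic replicate 2. Between the diabetic arrays of the first table, replicate 2 exceeded replicate 1 by 2.39 for Bnip3, 2.15 for Egln3, 1.13 for Vegfa, 1.01 for Ak4 and 0.80 for Egln1 on the log2 scale. A gap at least as large as that of Bnip3 occurred in 8 of the 8631 genes, and one at least as large as that of Egln3 in 11. The same gap was -0.12 for Hif1a, -0.33 for Arnt, 0.28 for Vhl and 0.15 for Lox, and the median size of this gap over all genes was 0.21. Between the control arrays of the first table the members differed by -0.49 to 0.52, and the median size over all genes was 0.20.

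Other hypoxia genes were high on the same array. The counts below were chosen after its values were seen, so they describe that array and are no test. A gap of at least 1 on the log2 scale, replicate 2 over replicate 1 of the diabetic group, was found in 71 genes, 0.823% of those tested. It was found in 4 of the 9 tested members, in 17 of 47 tested genes of a list of other hypoxia-inducible genes and in 6 of 17 glycolytic targets. Together these make 27 of the 71. Of the 17, Bhlhe40, Ppp1r3c and Stc2 reached the filter for testing only through diabetic replicate 2. The counts thus rest in part on that array by construction, under a filter that was the same for all genes. The gap was found in 0 of 24 genes of a list of other sensing, partner and turnover genes. Over all 97 tested members and listed genes, whatever their gap, 25 (25.8%) were at least 1 above both controls of the first table on diabetic replicate 2, where 0.695% of all genes were. The 25 include Bhlhe40, Ppp1r3c and Stc2. Diabetic replicate 3 had no part in the gap, but it entered the filter, and the lists were chosen with earlier results of these data known. It was above its control for 21 of the 27 (77.8%) with a median of 0.31. The share was close to it, 73.2% with a median of 0.21, over all 97, and 53.6% with a median of 0.028 over all genes.

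Among them was Bhlhe40, a transcriptional repressor induced by hypoxia, a gene so dim on the other 5 arrays that the size of its gap depends on the pseudocount. Its signals were 7.14, 982 and 38.0 on diabetic replicates 1 to 3, against 8.22, 8.97 and 22.7 on control replicates 1 to 3. Ddit4, an inhibitor of the growth kinase mTORC1, had 991, 6717 and 2278 against 1556, 1039 and 1393, and Ppp1r3c, a glycogen-targeting subunit of protein phosphatase 1, had 38.3, 1029 and 83.2 against 111, 34.8 and 83.6. These 3 genes were named after their values were seen, and Bhlhe40 and Ppp1r3c reached the filter for testing only through diabetic replicate 2. On that array each of the 3 stood far above all other arrays. Diabetic replicate 1 lay under both of its controls for Ddit4 and between them for Ppp1r3c. For Bhlhe40 its signal of 7.14 and those of its controls, 8.22 and 8.97, are too dim to rank. The heat shock genes Hspa1b and Hspa1a, which are not hypoxia list members and were named after their values were seen, had gaps of 4.64 and 4.12 between diabetic replicates 2 and 1. Hspa1a also reached the filter only through diabetic replicate 2. Hspa1b had 123, 3840 and 131 on diabetic replicates 1 to 3 and 361, 121 and 95.8 on control replicates 1 to 3. The Y-linked genes Eif2s3y and Kdm5d also had wide gaps: Eif2s3y had 13.4, 300.03 and 355 on diabetic replicates 1 to 3 and 16.8, 267 and 295 on control replicates 1 to 3. Replicate 1 was thus low for Y-linked transcripts in both groups and replicate 2 high in both, and the labels give no sex. Across the same Y-linked difference, control replicate 2 minus control replicate 1 was -0.17 for Bnip3, 0.14 for Egln3, 0.081 for Ak4, 0.52 for Vegfa and -0.21 for Egln1.

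Genes most like the targets were found by correlating the log2 signals of each tested gene, centred within each table, with the mean of Bnip3, Ak4 and Vegfa over the 6 arrays. Of 1482 candidate genes, the 6 with the highest r were Hk2 (0.999), which encodes a hexokinase, Slc2a1 (0.994), the glucose transporter GLUT1, Ier3 (0.992), an early response gene, Cdca3 (0.990), a regulator of mitotic entry, Rfx3 (0.990), a transcription factor of ciliated cells, and P4ha1 (0.988), a collagen prolyl hydroxylase. Hk2, Slc2a1, Ier3 and P4ha1 were on the lists of hypoxia-inducible or glycolytic genes, and Cdca3 and Rfx3 on none. Rfx3 reached the filter for testing only through diabetic replicate 2. Hk2 had signals of 1139, 2995 and 768 on diabetic replicates 1 to 3, against 951, 1016 and 555 on control replicates 1 to 3, and Slc2a1 had 1972, 5413 and 2136 against 1578, 1509 and 1666. The correlation rests on few arrays and largely on diabetic replicate 2, and 63 candidates had r above 0.9. By the same measure Egln3 and Egln1 had r of 0.92 and 0.88, Arnt 0.13, Vhl 0.070, Lox -0.56 and Hif1a -0.68.

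The other genes that sense oxygen or handle the factors showed no common direction. Of 30 listed, 24 were tested, 13 were above 0, where 52.2% of all genes were, and the median log2 change was 0.0081. In limma 0 passed the adjustment. At an unadjusted p under 0.05 in limma 4 were higher, where 3.72% of all genes were, and 1 was lower, where 3.87% were. Siah2, a ubiquitin ligase that degrades prolyl hydroxylases, differed by 0.56 ± 0.20 on the log2 scale (SE, n = 3 per group). Siah2 signals were 155, 222 and 109.8 on diabetic replicates 1 to 3, against 112, 81.1 and 95.6 on control replicates 1 to 3. Its log2 change was 0.25 with the mean of all its probe sets and 0.15 in the second table alone. Arnt2, the neural relative of Arnt, had 0.47 ± 0.21, of which 1.04 in the second table and 0.19 in the first, the same division as in Arnt. Sart1, a factor that promotes the degradation of HIF-1 alpha, had 0.40 ± 0.15, Ruvbl2, a helicase of chromatin complexes, 0.35 ± 0.15, and Usp33, a deubiquitinase that binds VHL, -0.45 ± 0.17. Sirt1, a deacetylase, Ncoa2, a nuclear receptor co-activator, and Siah1a had changes of -0.24, 0.28 and -0.21, and their groups overlapped. Leaving out control replicate 1 gave 0.088 for Ncoa2 and -0.035 for Siah1a, leaving out control replicate 2 gave 0.47 for Ncoa2, and leaving out diabetic replicate 2 gave -0.13 for Sirt1 and -0.089 for Siah1a, which had -0.38 without either array of the second table.

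Of the 60 other hypoxia-inducible genes listed outside glycolysis, 47 were tested, 37 were above 0, where 52.2% of all genes were, and the median log2 change was 0.24. In limma 0 passed the adjustment. At an unadjusted p under 0.05 in limma 5 were higher, where 3.72% of all genes were, and 0 were lower, where 3.87% were. Zfp395, a zinc finger protein, differed by 0.77 ± 0.23 on the log2 scale (SE, n = 3 per group), Ppfia4, a liprin, 0.69 ± 0.25, Stc2, a secreted glycoprotein of calcium and phosphate handling, 0.93 ± 0.35, Tfrc, the transferrin receptor, 0.38 ± 0.16, and Rora, a nuclear receptor, 0.40 ± 0.17. P4ha1 had 0.70 ± 0.32, Ier3 1.30 ± 0.61 and Mif, a cytokine, 0.34 ± 0.16. Stc2 reached the filter for testing only through diabetic replicate 2. Leaving out diabetic replicate 2 gave 0.24 for P4ha1, 0.35 for Ier3, 0.47 for Stc2 and 0.26 for Rora. Leaving out diabetic replicate 1 gave 1.11, 2.02 and 1.41 for P4ha1, Ier3 and Stc2, and leaving out control replicate 1 gave 0.40 for Ppfia4. Without diabetic replicate 2, 27 of the 47 were above 0 with a median of 0.041, where 54.3% of all genes were above 0 with a median of 0.023, and without diabetic replicate 1 the median was 0.39. On diabetic replicates 1 to 3 taken singly, 22, 38 and 33 of the 47 were above the control mean, where 52.1%, 47.8% and 53.6% of all genes were, so that the count on diabetic replicate 1 was near the background.

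Among the glucose uptake and glycolytic targets, all 17 tested genes were above 0, where 52.2% of all genes were, with a median log2 change of 0.69, and 10 were higher at an unadjusted p under 0.05 in limma, where 3.72% of all genes were, 0 passing the adjustment. Diabetic replicates 1 to 3 had medians of 0.21, 1.06 and 0.38, and 14, 16 and 15 of the 17 genes lay above the control mean, against the same shares of all genes as above. Without diabetic replicate 2, 15 of 17 were above 0, with a median of 0.31. Aldoa, Pfkl, Slc16a3 and Ldha, for aldolase, phosphofructokinase, the lactate exporter and lactate dehydrogenase A, had log2 changes of 0.93 ± 0.20, 0.78 ± 0.18, 1.78 ± 0.44 and 0.70 ± 0.19 (SE, n = 3 per group), and 0.81, 0.60, 1.16 and 0.52 without that array.

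**Figure D4:**
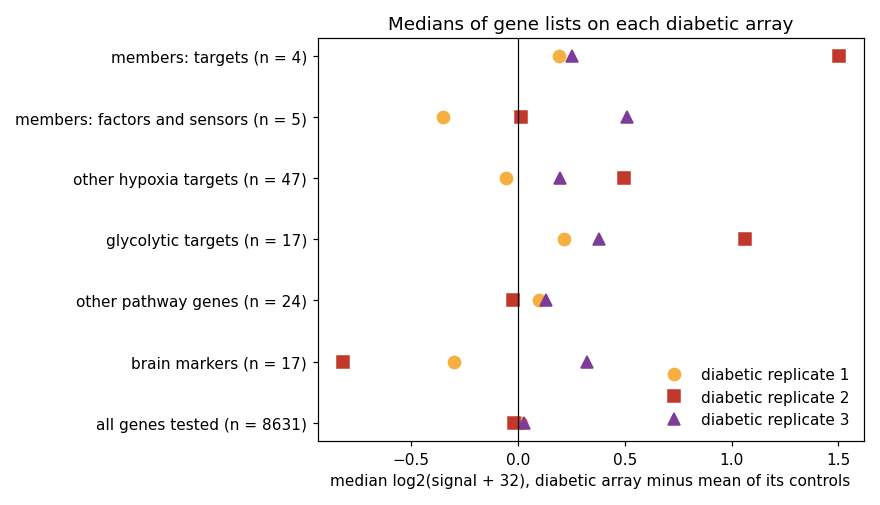
Median over the genes of each list of the difference in log2(signal + 32) between each diabetic array and the mean of its controls; circles, squares and triangles are diabetic replicates 1, 2 and 3. On diabetic replicate 2 the targets, the glycolytic targets and the other hypoxia-inducible genes reach 1.50, 1.06 and 0.49, and the brain markers lie at -0.82.

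The brain markers had a median of -0.82 on diabetic replicate 2, with 4 of 17 above the control mean, where 47.8% of all genes were. Their medians were -0.30 and 0.32 on diabetic replicates 1 and 3, and their summed signals were 28669 to 37231 on the diabetic and 30333 to 33840 on the control arrays. On diabetic replicate 2 the neuronal genes Tubb3, Dcx and Stmn2 and the proneural factor Neurog2 lay under both controls, with 959, 420.4, 724 and 148. The other listed neuronal genes, Elavl3, Elavl4, Neurod1, Map2 and Ina, lay under both controls as well. The progenitor genes were divided. Sox1, Sox2 and Vim lay above both controls, with 160, 2699 and 15388, and Pax6, Nes, Hes5 and Fabp7 under both, with 422, 2556, 808 and 1341. The 20 tested endothelial markers, the cells in which Epas1 is best known and on which VEGF acts, had a median log2 change of -0.017 (-0.022, -0.15 and 0.014 on diabetic replicates 1 to 3), with summed signals of 5777 to 7161 on the diabetic and 5536 to 7744 on the control arrays. Plvap, a protein of endothelial diaphragms, had a log2 change of 0.57, Fli1, an endothelial transcription factor, -0.74, and neither passed the adjustment in limma. The 23 tested mesenchyme markers, the cells in which Lox is best known, had a median of -0.21 with 4 above 0, where 52.2% of all genes were. On diabetic replicates 1 to 3 their medians were -0.11, -0.17 and -0.24, and their summed signals were 26577 to 26983 on the diabetic and 27249 to 31944 on the control arrays. The medians were 0.095 for 13 erythroid markers and -0.20 for 8 macrophage markers, with summed signals of 51294 to 58641 against 44586 to 53581 and of 1364 to 2068 against 1456 to 2420. On diabetic replicates 1 to 3 the erythroid medians were 0.066, -0.24 and 0.31, with 7, 5 and 12 of 13 above the control mean. The macrophage medians were 0.15, -0.56 and -0.017 on the same arrays, with 5, 1 and 4 of 8 above it. Of all genes 52.1%, 47.8% and 53.6% were above it. No marker was at 0, and the dimmest defining markers were the endothelial factor Erg, with a mean signal of 13.0, and the macrophage integrin Itgam, with 27.3. The part of these cell types in the values of the members was not tested, and fewer cells of a type and less RNA per cell cannot be told apart in whole brain.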

How the data were processed

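The authors deposited probe set intensity values on a linear scale, 1 column per array, made with GCOS per the submitters' processing notes, with an algorithm and settings not given in the sources used here. Per the file headers, the first table was made on MOE430A chips and the second on Mouse430A_2 chips with another scanner and fluidics protocol, and every array had a run day of its own, so day could not be a block.

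Each array was scaled to a mean of 500 after trimming 2% at each end, a step that moved values by at most 0.0363%. The probe set of highest mean signal stood for each gene, log2(signal + 32) was taken, which understates changes of dim genes, and the 8631 genes whose mean signal reached 100 entered the test. The groups were set against each other in limma 3.58.1 (R 4.3.3) by two-sided moderated tests, p-values being adjusted by Benjamini-Hochberg over those genes, with the table as a block, leaving 3 residual degrees of freedom plus a prior worth 6.37. Precision is limited by the number of arrays, and the median SE of a log2 change was 0.17. Gene symbols came from the probe annotation, and 20351 of the 20380 probe sets naming 1 gene matched RefSeq. Listed genes were named as up to 8 per pathway list and up to 4 of the glycolytic list and of each cell marker list with the smallest unadjusted p, and the 6 most like Bnip3, Ak4 and Vegfa among genes whose centred values had an SD of at least 0.3. Further cell markers were named outside this rule, with their values known. The members, lists and tests were chosen with earlier results of these data known. Promoters were taken from RefSeq for 8 members, and the promoters of Epas1 and Lox are not used here.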

Additional observations from a re-analysis of the deposited data

How the results depend on the processing

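In limma 0 genes passed the adjustment under every alternative that gave a test. The count at an unadjusted p under 0.05, 655 of 8631, was 97 with no block and 416 (without control replicate 1) to 846 (without either array of the second table) on leaving out 1 array at a time. Leaving out an array of the second table drops its partner from the estimate. With the replicate number as a block, which gives the same log2 changes, it was 633, and the count of adjusted calls remained 0. At the unadjusted threshold the block moved Lox (limma p 0.0543), Arnt2 (0.0553) and Ruvbl2 (0.0603) past 0.05 and Bnip3 (0.0227), Ier3 (0.0126) and P4ha1 (0.0232) under it. Same-numbered arrays of the first table did not deviate together (correlation across genes -0.013), so the numbers were not taken as pairs. The targets' median less that of the factors and sensing genes, 0.55, was 0.34 to 0.79 with 1 array left out and -0.26 in the second table alone. The median of the targets ranged from 0.33 to 0.97, that of the sensing genes from -0.056 to 0.37 and that of the factors from -0.20 to 0.21. The factors' median rests on Hif1a and Arnt, and was -0.35 at a mean signal of at least 300, which Arnt did not reach, -0.20 from replicates 1 and 2 alone and 0.55 from replicate 3 alone. Replicate 3 alone gave other values for several genes: Hif1a had 0.095, Egln1 -0.071, Lox 0.15, Epas1 0.36 and Siah1a 0.11. Vhl had -0.025 with array weights and -0.21 in the first table, and ranged from -0.21 to 0.23 with 1 array left out. For Epas1 these values were -0.067, -0.075 and -0.075 to 0.27. In the same way Egln1 ranged from -0.085 to 0.37, Egln3 from -0.056 to 1.17 and the list of other sensing, partner and turnover genes from -0.027 to 0.037. That list had -0.0012 with a pseudocount of 100, -0.0088 with quantile normalization, -0.0045 from replicates 1 and 2 alone and 0.13 from replicate 3 alone. Of 806 values under all alternatives, 29 had the opposite sign. The 806 include counts of genes, which have no sign, and alternatives that repeat the same log2 changes, so the share of sign changes is no measure of stability. With 3 arrays a group, and 1 array per group in the second table, differences of the size of Egln1 or Vhl are within the error.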
